A study of Mus musculus with 95 samples.

Results

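Malat1, Neat1, Meg3, Miat, Snhg11, Rian, Mirg and Kcnq1ot1, 8 long noncoding RNAs known for staying in the nucleus or for lying in imprinted clusters, were followed in mouse cortex, kidney, liver and WAT (white adipose tissue, which stores lipid). The members are the rows of the count table with these 8 symbols, 8 of 55401 rows and of 55291 distinct symbols. The series holds 95 libraries of polyadenylated RNA from 24 mice of the inbred strain C57BL/6J, perfused with PBS before the tissues were taken. Stim mice are read, from the series title and design, as those that spent 3 months in a torpor-like state, in which metabolic rate and body temperature are lowered. Con mice are the controls of the same age, and T0 mice were taken at time 0. The ages given come to 29.3 weeks for Stim and Con mice and 17.4 weeks for T0 mice. Each tissue had 8 libraries per group, 4 labelled M and 4 labelled F, except WAT of Con with 7, 3 labelled M and 4 labelled F. How the state was induced, and whether Con mice received a sham treatment, is not given in the labels used here. The members were chosen in part by values of the cortex Stim and Con libraries, among them the counts of Malat1, Neat1 and Meg3. All differences of the members between groups and between M and F in cortex are therefore given as a description with no test.

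Malat1 is among the most abundant RNAs of many cell types and gathers in nuclear speckles, the bodies that hold splicing factors. Neat1 is the RNA scaffold around which paraspeckle proteins assemble. Meg3, Rian and Mirg come from the maternal chromosome of the Dlk1-Dio3 imprinted cluster, are strongly expressed in brain, and Rian and Mirg carry small nucleolar RNAs and microRNAs. Kcnq1ot1 is expressed from the paternal chromosome and silences neighbours in its own imprinted cluster. Miat is a nuclear RNA of neurons, and Snhg11 is a host of small nucleolar RNAs. Malat1 and the long form of Neat1 end in a triple helix instead of a poly(A) tail, and how fully a poly(A) selection captures them was not tested.

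In GENCODE vM21 (GRCm38), Malat1 is a single exon at chr19:5795690-5802672 on the minus strand, and Neat1 is a single exon at chr19:5824708-5845478 on the same strand, with 22.0 kb between them. Meg3 (chr12:109541001-109571726), Rian (chr12:109603940-109661716) and Mirg (chr12:109729764-109749460) follow one another on the plus strand, with 32.2 kb between Meg3 and Rian and 68.05 kb between Rian and Mirg. Rian holds 13 annotated small nucleolar RNA genes, and Mirg holds 14 RefSeq microRNA hairpins. Miat lies at chr5:112213228-112229395 on the minus strand. Snhg11 lies at chr2:158375638-158386145 on the plus strand and is typed as protein coding in GENCODE and as long noncoding in RefSeq. Kcnq1ot1 is a single exon at chr7:143203458-143296549 on the minus strand and overlaps Kcnq1 on the other strand. Since the sources used here do not state which strand was counted, reads of Kcnq1ot1 and Kcnq1 cannot be told apart, nor can those of Malat1 and Gm37376, Meg3 and Gm26906, or Miat and Gm26953.

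RefSeq promoter windows (GRCm38.p6), from 250 bases before to 50 bases after the start, were matched by symbol for 7 of the 8 members. The windows of the chromosome 12 neighbours are shown because Meg3 and Mirg had less RNA in every Stim than in every T0 cortex library while Rian, between them, overlapped, and that of Malat1 because it had the widest described difference in cortex. Capitals mark matches, on either strand, to 5 searched motifs: the TATA box (TATAAA), the CCAAT box (CCAAT), the GC box (GGGCGG), the E-box (CACGTG) and the cAMP response element (TGACGTCA). Overlapping matches are joined.
Meg3: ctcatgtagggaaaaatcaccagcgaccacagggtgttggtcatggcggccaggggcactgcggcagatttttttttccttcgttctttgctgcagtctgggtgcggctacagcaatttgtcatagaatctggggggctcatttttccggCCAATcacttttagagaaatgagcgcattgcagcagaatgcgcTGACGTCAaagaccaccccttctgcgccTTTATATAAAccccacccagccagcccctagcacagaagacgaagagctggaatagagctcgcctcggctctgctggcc
Rian: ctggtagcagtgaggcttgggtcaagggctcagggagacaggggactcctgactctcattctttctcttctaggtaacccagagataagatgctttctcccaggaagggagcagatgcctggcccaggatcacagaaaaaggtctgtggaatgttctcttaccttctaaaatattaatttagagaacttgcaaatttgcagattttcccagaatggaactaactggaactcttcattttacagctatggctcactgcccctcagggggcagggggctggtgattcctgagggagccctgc
Mirg: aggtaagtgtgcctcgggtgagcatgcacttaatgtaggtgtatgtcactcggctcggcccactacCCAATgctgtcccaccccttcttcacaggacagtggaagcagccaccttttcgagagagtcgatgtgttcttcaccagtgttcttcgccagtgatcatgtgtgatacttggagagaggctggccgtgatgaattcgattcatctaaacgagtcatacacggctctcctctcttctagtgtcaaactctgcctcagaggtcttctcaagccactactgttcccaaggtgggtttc
Malat1: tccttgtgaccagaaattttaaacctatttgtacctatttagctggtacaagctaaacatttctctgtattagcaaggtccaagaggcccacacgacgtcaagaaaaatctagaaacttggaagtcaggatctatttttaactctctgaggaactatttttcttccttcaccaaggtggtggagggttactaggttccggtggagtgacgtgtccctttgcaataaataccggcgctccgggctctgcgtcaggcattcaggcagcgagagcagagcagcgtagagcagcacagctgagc
The Meg3 window spans chr12:109540746-109541045 on the plus strand, the Rian window chr12:109603695-109603994 on the plus strand, the Mirg window chr12:109734731-109735030 on the plus strand, and the Malat1 window chr19:5802623-5802922 on the minus strand. The Meg3 window held CCAAT at base -100, TGACGTCA at base -57 and TATAAA at base -25, counted from the start, with an overlapping TATAAA on the opposite strand at -29. The Mirg window held CCAAT at -184, and the Rian and Malat1 windows held none of the 5 motifs. Over all 32544 windows of the same length, 37.36% held CCAAT, 13.57% TATAAA, 35.88% GGGCGG, 7.166% CACGTG and 1.801% TGACGTCA. These matches describe the letters in the windows and no binding was measured.

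Total counts per library lay between 4031533 and 29269511, both in liver, and all libraries carried one batch code. Each library matched its own sex label, but the kidney libraries of T0 animals 4 and 5 carry labels opposite to those of the same animals in the other tissues. The defining markers of each tissue were present in its libraries, with all 8 listed markers at a mean of at least 1 CPM (the count scaled to a fixed library total) in cortex, kidney, liver and WAT of every group. All Stim libraries carry lower library numbers than all Con libraries, so that the order of the libraries and the treatment cannot be told apart. The T0 libraries of animals 1 to 4, labelled F outside kidney, carry lower numbers than all Con libraries and than those of T0 animals 5 to 8, labelled M outside kidney, so that within T0 the order and the sex label cannot be told apart either. The row CT010467.1 took a mean of 4.33% of liver counts in Stim, 12.8% in Con and 3.35% in T0. Counts were scaled by TMM (trimmed mean of M values), differences were tested with edgeR's quasi-likelihood test on the counts with sex as a covariate, and a log2 fold change is given with its standard error. A call means a p under 0.05 after Benjamini-Hochberg adjustment across the genes of a contrast.

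Across tissues, the members differed in their pattern of level. Meg3, Rian, Mirg, Miat and Snhg11 were far higher in cortex than elsewhere, and Malat1 was highest in kidney. Neat1 was highest in WAT and lowest in cortex, and Kcnq1ot1 was low in every tissue. Meg3 averaged 3243 CPM in cortex, rank 9 of all rows there, 112.8 CPM in WAT, 3.81 CPM in liver and 2.98 CPM in kidney. Snhg11 averaged 1543 CPM in cortex, 110 CPM in kidney, 105.7 CPM in WAT and 17.3 CPM in liver. Miat averaged 472 CPM in cortex, against 7.83 CPM in WAT, 0.556 CPM in kidney and 0.0128 CPM in liver, where 6 counts were found over all 24 libraries and 21 of them were at 0. Rian averaged 561 CPM in cortex, against 38.2 CPM in WAT and under 1 CPM in liver and kidney. Mirg averaged 25.6 CPM in cortex and 1.74 CPM in WAT, and kidney held 33 counts of it over all 24 libraries.

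Malat1 averaged 3693 CPM in kidney, rank 17 of all rows, 970 CPM in WAT, 875 CPM in cortex and 836 CPM in liver. Neat1 averaged 2031 CPM in WAT, rank 34, 837 CPM in kidney, 245 CPM in liver and 126.3 CPM in cortex. Kcnq1ot1 stayed between 21.9 CPM in WAT and 36.8 CPM in kidney. Per kilobase of merged exon, the order within cortex was Snhg11 at 181 ± 65.8, Meg3 at 179 ± 65.2 and Malat1 at 125.3 ± 57.3 CPM per kb (SD, n = 24), and the spread of neighbouring members overlapped. Miat followed at 50.8 ± 19.5, Rian at 30.7 ± 3.46, Neat1 at 6.08 ± 1.13, Mirg at 3.51 ± 1.29 and Kcnq1ot1 at 0.362 ± 0.147 CPM per kb (SD, n = 24). In WAT, Malat1 at 138.8 ± 66.1 and Neat1 at 97.8 ± 32.3 CPM per kb (SD, n = 23) stood above the other members.

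**Figure D1:**
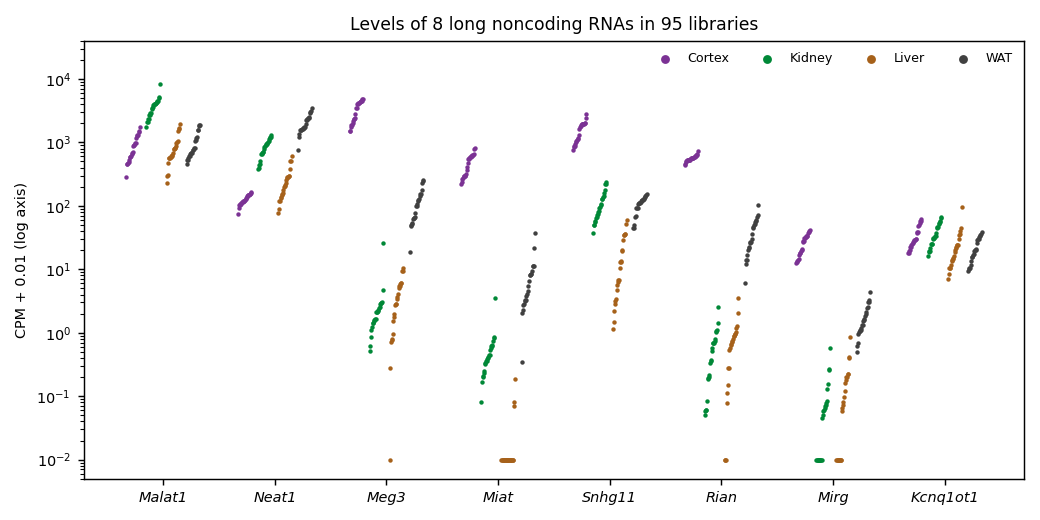
CPM + 0.01 on a log axis for the 8 members, each point 1 of the 95 libraries, colored by tissue. Meg3, Miat, Snhg11, Rian and Mirg are highest in cortex (means 3243, 472, 1543, 561 and 25.6 CPM), Malat1 in kidney (3693 CPM) and Neat1 in WAT (2031 CPM), and points at the bottom are libraries with no count.

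In the joint fit of all 95 libraries, 6 pairs of tissues were compared, each over 20888 genes. Most genes differed between any 2 tissues: 87.3% were called between cortex and kidney, 88.9% between cortex and liver, 85.3% between cortex and WAT, 73.4% between kidney and liver, 76.3% between kidney and WAT and 80.5% between liver and WAT. Against that background a call on a member is no special result, and the sizes carry more. The cortex to kidney log2 fold change was 10.04 ± 0.38 for Meg3, 9.92 ± 0.31 for Rian, 9.71 ± 0.31 for Miat and 8.18 ± 0.33 for Mirg, and it was 3.60 ± 0.25 for Snhg11, all 5 called. Neat1 differed in every pair, with log2 fold changes of -3.97 ± 0.15 for cortex against WAT, -2.88 ± 0.15 for cortex against kidney and -2.07 ± 0.14 for cortex against liver. Malat1 was lower in cortex than in kidney by a log2 fold change of -2.32 ± 0.18, and cortex against WAT was not called (-0.18 ± 0.18, edgeR adjusted p = 0.333), with a sign that turned in T0 libraries alone (0.36).

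Neighbours in the order that were not called apart were also Kcnq1ot1 in cortex and kidney (-0.28 ± 0.18, edgeR adjusted p = 0.12), Kcnq1ot1 in kidney and liver (-0.33 ± 0.18, adjusted p = 0.082) and Snhg11 in kidney and WAT (0.23 ± 0.23, adjusted p = 0.37). Against WAT, Kcnq1ot1 was called higher in liver (1.25 ± 0.18), kidney (0.92 ± 0.18) and cortex (0.63 ± 0.18), and it was called lower in cortex than in liver (-0.62 ± 0.18). The calls of kidney and cortex against WAT held in all 6 alternatives. That of liver against WAT was lost with total counts (0.066, edgeR adjusted p = 0.77), and that of cortex against liver in T0 libraries alone (-0.25, adjusted p = 0.41). The scaling decides comparisons with liver: replacing TMM by total counts shifted all cortex against liver log2 fold changes by 1.16, kidney against liver by 0.97 and liver against WAT by -1.21. With total counts the Malat1 difference between cortex and liver turned from -1.15 to 8.25e-05, that between liver and WAT turned from 0.97 to -0.23, and the Kcnq1ot1 differences turned from -0.62 to 0.52 between cortex and liver and from -0.33 to 0.63 between kidney and liver. The directions of Meg3, Rian, Mirg, Miat, Snhg11 and Neat1 between tissues were the same under TMM and total counts.

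Together the 8 RNAs took up under 1% of the counts of each library. The share averaged 0.688% ± 0.229 in cortex, 0.468% ± 0.148 in kidney and 0.113% ± 0.0566 in liver (SD, n = 24 each), and 0.329% ± 0.0895 in WAT (SD, n = 23). What made up the share differed as well. Meg3 supplied 46.6% of the members' counts in cortex and Snhg11 22.3%, while Malat1 supplied 77.8% in kidney and 73.3% in liver. In WAT Neat1 supplied 61.5% and Malat1 29.2%.

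In cortex, 5 of the members, Malat1, Meg3, Snhg11, Miat and Mirg, shared one pattern over the treatment groups: low in Stim, high in T0, and split by sex label in Con. Malat1 stood at 451, 467, 585 and 654 CPM in Stim M and at 459, 519, 594 and 674 CPM in Stim F. It stood at 1315, 1331, 1538 and 1743 CPM in Con M and at 290, 499, 619 and 703 CPM in Con F. T0 M had 874, 912, 1177 and 1275 CPM, and T0 F had 906, 976, 977 and 1457 CPM. All Con M libraries lay above all Stim libraries without overlap, while Con F libraries covered the Stim range, and all T0 libraries lay above both Stim and Con F.

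Meg3, the most counted member in cortex, also stood higher in Con M and in T0 than in Stim. It stood at 1532, 1854, 2151 and 2435 CPM in Stim M and at 1533, 2048, 2323 and 2376 CPM in Stim F. Con M had 4314, 4330, 4460 and 4904 CPM, Con F had 1758, 1877, 2833 and 3443 CPM, and T0 ranged over 3496 to 4791 CPM with a median of 4140. The Con M libraries again stood above every Stim library, and the Con F libraries spread between the Stim and the T0 levels. As a description, the Stim to Con log2 fold change of Meg3 was -1.17 ± 0.18 in M and -0.26 ± 0.17 in F. That of Malat1 was -1.46 ± 0.23 in M and 0.09 ± 0.22 in F. With all cortex libraries in the fit, Stim against Con called 2750 of the 16609 genes tested in M and 72 in F. The difference of this effect between M and F was called for 844 genes. The split by sex label in Con is therefore not read as particular to the members.

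Snhg11, Miat and Mirg had their highest means of these groups in Con M and their lowest in Stim, with Con F between. Snhg11 averaged 1034 CPM in Stim M and 1009 CPM in Stim F, against 1935 CPM in Con M and 1118 CPM in Con F. Miat averaged 313 CPM in Stim M and 268 CPM in Stim F, against 559 CPM in Con M and 372 CPM in Con F. Mirg averaged 17.2 CPM in Stim M and 16.1 CPM in Stim F, against 33.0 CPM in Con M and 18.7 CPM in Con F. Kcnq1ot1 was split by sex label in Con as well, but its T0 libraries, at 22.2 to 52.7 CPM, overlapped those of Stim. It stood at 18.2, 19.9, 24.0 and 27.7 CPM in Stim M, against 49.1, 56.98, 57.4 and 62.7 CPM in Con M, and the Stim to Con log2 fold change was -1.33 ± 0.24 in M and -0.08 ± 0.24 in F.

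Rian and Neat1 overlapped between the groups. Rian, which lies between Meg3 and Mirg on the same strand, stood at 448 to 617 CPM in Stim, 502 to 626 CPM in Con and 499 to 730 CPM in T0, with medians of 544, 555 and 569 CPM, with each group reaching into the others. Neat1 stood at 74.8 to 155 CPM in Stim, 91.96 to 164 CPM in Con and 104.02 to 160 CPM in T0, with medians of 129.3, 123.05 and 120 CPM. Within Stim and within Con, every M library had more Neat1 than every F library, and in T0 the M and F libraries overlapped. Over both sexes, the Stim to Con log2 fold change was -0.75 ± 0.25 for Malat1, -0.75 ± 0.17 for Meg3, -0.72 ± 0.22 for Kcnq1ot1, -0.04 ± 0.07 for Rian and -0.04 ± 0.11 for Neat1, while 5.41% of the 16609 genes tested were called in this contrast.

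**Figure D2:**
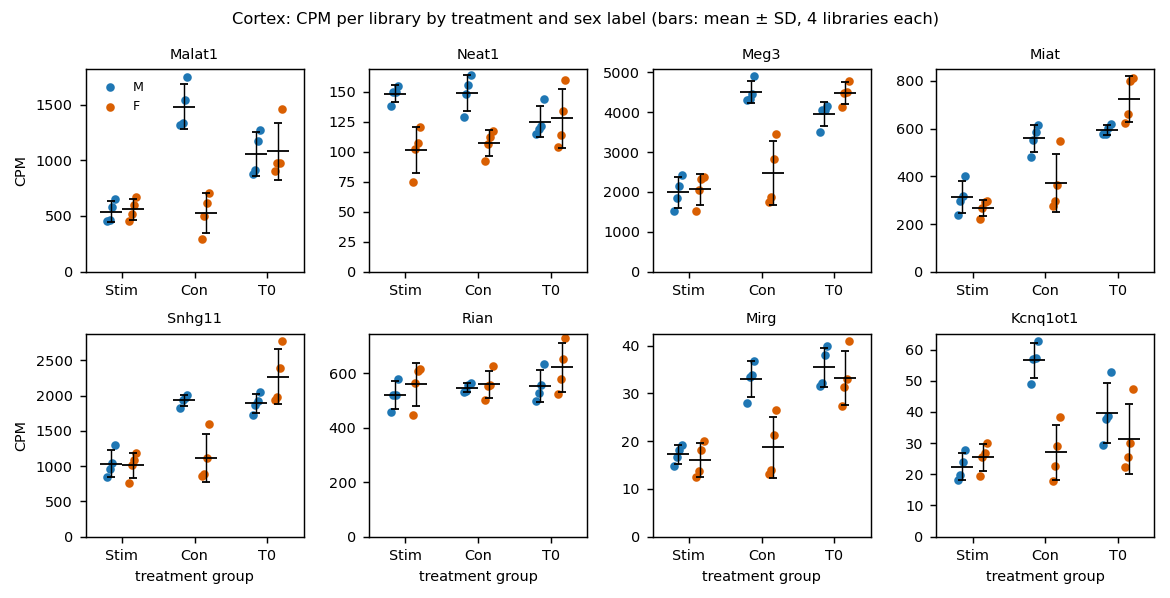
CPM of the 8 members in the 24 cortex libraries by group, with M and F apart, and bars for the mean ± SD of 4 libraries. Malat1, Meg3, Miat, Snhg11, Mirg and Kcnq1ot1 are low in Stim of both sexes and high in Con M, with Con F near Stim or between. The T0 libraries of Kcnq1ot1 overlap those of Stim, and Rian overlaps in all groups (medians 544, 555 and 569 CPM in Stim, Con and T0).

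The share of all cortex counts taken by the 8 members moved in the same way. It averaged 0.459% ± 0.0774 in Stim M and 0.461% ± 0.0726 in Stim F, 0.926% ± 0.0545 in Con M and 0.521% ± 0.146 in Con F, and 0.824% ± 0.0557 in T0 M and 0.936% ± 0.0750 in T0 F (SD, n = 4 each). Total counts averaged 18823200 in Stim M, 20412400 in Stim F, 18619700 in Con M, 17640400 in Con F, 18788700 in T0 M and 18941700 in T0 F. The part of depth in the result was not tested. The row CT010467.1 took 0.261% of counts in Stim M, 0.249% in Stim F, 0.134% in Con M, 0.251% in Con F, 0.0952% in T0 M and 0.0919% in T0 F, and its part in the result was not tested.

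Stim and T0 libraries of cortex did not overlap for Miat, Meg3, Mirg, Snhg11 and Malat1. In this contrast 35.7% of the 16609 genes tested were called and 17.6% were called lower, and nothing is read from these shares for the members, since the Stim libraries had a part in choosing them. How many of all genes had no overlap between these libraries was not counted. The lack of overlap therefore describes the members' values and is not read as particular to them. Miat had a log2 fold change of -1.20 ± 0.15 in Stim against T0, with 220, 293 and 402 CPM as the lowest, median and highest of 8 Stim libraries, against 577, 624 and 812 CPM in T0. Meg3 had -1.06 ± 0.17, with 1532, 2100 and 2435 CPM in Stim, against 3496, 4140 and 4791 CPM in T0. The highest Stim library of either gene lay below its lowest T0 library.

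Mirg had a log2 fold change of -1.05 ± 0.15 in Stim against T0, with 12.4, 17.4 and 20.04 CPM in Stim, against 27.5, 32.7 and 41.0 CPM in T0. Snhg11 had -1.04 ± 0.17, with 763, 1030 and 1293 CPM in Stim, against 1725, 1957 and 2772 CPM in T0. Malat1 had -0.96 ± 0.25, with 451, 552 and 674 CPM in Stim, against 874, 977 and 1457 CPM in T0. In none of these 3 did a Stim library reach a T0 library.

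The other 3 members overlapped between Stim and T0. Kcnq1ot1 had a log2 fold change of -0.53 ± 0.21, with 18.2, 24.7 and 29.9 CPM in Stim, against 22.2, 33.7 and 52.7 CPM in T0. Rian had -0.13 ± 0.07 and Neat1 had -0.06 ± 0.11. Stim and T0 mice differed in age as well as in treatment, which cannot be told apart in this contrast. Con against T0 is a description too, because the Con libraries also had a part in choosing the members. It had Malat1 at 0.48 ± 0.22 in M and -1.03 ± 0.23 in F, and Meg3 at 0.18 ± 0.17 in M and -0.86 ± 0.17 in F. Within M 437 of the 16609 genes tested were called in this contrast and within F 3984, while 21.2% were called over both sexes.

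Markers of other cell types moved alongside in cortex. Between Stim and T0, all 8 microglia and macrophage markers, 6 of 7 astrocyte markers and 6 of 7 oligodendrocyte markers rose, while 4 of 8 neuron markers fell and none of them rose. The summed neuron markers lay at 5419 to 7065 CPM in Stim, 5201 to 6139 CPM in Con and 5902 to 6792 CPM in T0, so that the groups overlapped. The summed astrocyte markers lay at 4383 to 5294 CPM in Stim, against 3181 to 3820 CPM in T0, and in Con at 3397 to 3639 CPM in M and 4223 to 4854 CPM in F. The summed oligodendrocyte markers lay at 4812 to 9078 CPM in Stim, 4131 to 6009 CPM in Con and 3565 to 4525 CPM in T0. None of the markers in these 4 lists was at 0. In such bulk tissue, fewer cells of a type and less RNA per cell cannot be told apart, and the part of these cell types in the result was not tested.

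RNA of genes that encode proteins of the bodies Malat1 and Neat1 belong to also changed between Stim and T0 in cortex. Of 22 genes for nuclear speckle and splicing factors, 18 fell and 1 rose, with a median log2 fold change of -0.33, and of 15 paraspeckle protein genes 9 fell and none rose, with a median of -0.30. Sfpq, a core paraspeckle protein, fell by 0.66 (SE 0.09, edgeR adjusted p = 2.7e-06), and Cpsf6, a cleavage factor, fell by 0.44 (SE 0.06, adjusted p = 7.5e-06). Acin1 and Rnps1, partners in a splicing-dependent complex, fell by 0.41 (SE 0.06, adjusted p = 7.4e-06) and 0.37 (± 0.06, adjusted p = 1.8e-05). Over all genes tested the same contrast had 17.6% called lower and 18.1% called higher. All gene lists and marker lists used here, above and below, were chosen with earlier results of these data known. Their counts of called genes and p-values therefore describe the listed genes and are no independent test.

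Between Stim and Con, 4 of the 22 speckle and splicing genes fell in cortex, and none of the 15 paraspeckle genes was called, beside 2.42% of all genes called lower. The 4 were Rnps1 (-0.23 ± 0.06, edgeR adjusted p = 0.020), Luc7l3 (-0.35 ± 0.09, adjusted p = 0.026), Srsf2 (-0.25 ± 0.07, adjusted p = 0.033) and Acin1 (-0.19 ± 0.06, adjusted p = 0.048). Between Con and T0, 12 of the 22 fell and 1 rose, beside 10.5% of all genes called lower and 10.8% higher, with Sf3b1, a core subunit of the spliceosome, at -0.30 ± 0.07 (adjusted p = 0.0025). Of 29 other long noncoding RNAs tested, 9 fell and 8 rose between Stim and T0, among them Mir124a-1hg, a host of a neuronal microRNA (-1.15 ± 0.16, adjusted p = 2.0e-05), and Zfas1, a host of small nucleolar RNAs (0.75 ± 0.12, adjusted p = 2.2e-05). Between Stim and Con 2 of the 29 fell, Mir22hg (-0.30 ± 0.07, adjusted p = 0.013) and Ftx, a noncoding RNA of the X-inactivation centre (-0.60 ± 0.14, adjusted p = 0.017). None of the protein-coding genes tested in the Dlk1-Dio3 cluster, 3 of 4 listed, was called between Stim and T0, and 1 of 7 tested in the Kcnq1 cluster rose, Cd81 (0.19 ± 0.07, adjusted p = 0.041).

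In kidney 1 member was called by treatment, Snhg11, and it was lower in Stim than in both other groups. Snhg11 stood at 37.4, 50.2, 50.3 and 56.03 CPM in Stim M, against 65.5, 66.3, 72.3 and 96.7 CPM in Con M. It stood at 74.5, 80.5, 107.3 and 138.5 CPM in Stim F, against 180, 220, 221 and 236 CPM in Con F. Within each sex label every Stim library lay below every Con library. Snhg11 fell by 0.95 on the log2 scale in Stim against Con (SE 0.14, edgeR adjusted p = 0.0016), where 0.231% of the 16005 genes tested were called and 1 of 6 members that passed the low-count filter was.

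Against T0, with 56.8, 83.6, 91.5 and 102.5 CPM in T0 M and 128.9, 129.7, 142.9 and 158 CPM in T0 F, Snhg11 fell by 0.69 in Stim (SE 0.14, edgeR adjusted p = 0.021), beside 0.681% of genes called. Con against T0 was not called (0.26 ± 0.14, adjusted p = 0.51, with 0.312% of genes called). The Stim to Con log2 fold change was -1.18 ± 0.17 in F (adjusted p = 0.0015, 0.150% of genes called) and -0.69 ± 0.17 in M (adjusted p = 0.22, 0.0312% called), and the difference between M and F of 0.50 ± 0.24 was not called (adjusted p = 0.61). Over 27 alternatives the adjusted p of Stim against Con ranged from 2.1e-07 to 0.85, and the call was lost without the sex label in the model (adjusted p = 0.20) and in M libraries alone (adjusted p = 0.85). The call against T0 was lost without the sex label (adjusted p = 0.32), in F alone (adjusted p = 0.11) and in M alone (adjusted p = 0.28), within a range of 8.0e-04 to 0.32. No single library carried either call: leaving out each in turn gave -1.04 to -0.89 against Con and -0.78 to -0.64 against T0.

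Summed neuron markers in kidney lay at 2.01 to 6.30 CPM in Stim, 3.08 to 35.8 CPM in Con and 1.26 to 6.40 CPM in T0, and summed cortex markers at 6.16 to 20.4 CPM in Stim, 5.12 to 68.4 CPM in Con and 7.06 to 17.9 CPM in T0. The highest value of both in Con came from the F library of animal 9916, which also had the highest Meg3 (25.8 CPM), Miat (3.53 CPM) and Rian (2.56 CPM) of the kidney Con libraries. Without that library Snhg11 still fell in Stim against Con (-0.89 ± 0.14, edgeR adjusted p = 0.00467). The row CT010467.1 took a mean of 0.909% of kidney counts in Stim, 5.32% in Con and 3.12% in T0, where 1 library had 21.9% and the median was 0.480%. Mitochondrial ribosomal RNA took a mean of 0.773% in Stim, 1.60% in Con and 0.674% in T0. The part of either in the Snhg11 result was not tested.

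The other kidney members were not called by treatment. Malat1 had a log2 fold change of 0.27 ± 0.23 in Stim against Con (edgeR adjusted p = 0.76), with 2734, 4251 and 8433 CPM as the lowest, median and highest in Stim, against 2353, 3650 and 4297 CPM in Con. Its highest Stim value came from 1 M library, and the other 7 Stim libraries lay at or below 5215 CPM. Kcnq1ot1 had 0.33 ± 0.18 in Stim against Con (adjusted p = 0.63) and 0.59 ± 0.18 against T0 (adjusted p = 0.12). Neat1 had -0.07 ± 0.16 and Meg3 had -0.85 ± 0.58 in Stim against Con (edgeR adjusted p = 0.915 and 0.716), and Rian had -0.28 ± 0.61 (adjusted p = 0.914). The sign of Meg3 rested on the library of animal 9916, without which its log2 fold change in Stim against Con was 0.34. Miat and Mirg did not pass the filter in kidney or in liver.

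In liver and in WAT no member was called by treatment. In liver 1.95% of the 13604 genes tested were called in Stim against Con, 0.529% in Con against T0 and 1.34% in Stim against T0, and none of the 6 members that passed the filter was among them. Malat1 stood at 228, 605 and 1955 CPM as the lowest, median and highest in Stim, 299, 598 and 1627 CPM in Con and 606, 851 and 1502 CPM in T0, so that the groups overlapped widely. The log2 fold changes in Stim against Con lay between -1.13 ± 0.57 for Meg3 (adjusted p = 0.30) and 0.41 ± 0.38 for Kcnq1ot1 (adjusted p = 0.60). The biological coefficient of variation was 0.377 in liver and 0.390 in WAT, against 0.268 in kidney and 0.144 in cortex, and smaller differences could be called in cortex than elsewhere.

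In WAT 0.00596% of the 16784 genes tested were called in Stim against Con, 0.161% in Con against T0 and 0.226% in Stim against T0, and none of the 8 members was among them. Neat1 stood at 766, 1950 and 2967 CPM as the lowest, median and highest in Stim, 1589, 1919 and 3538 CPM in Con and 1566, 1740 and 3077 CPM in T0. The log2 fold changes in Stim against Con ran from -0.48 ± 0.38 for Miat (edgeR adjusted p = 0.66) to -0.06 ± 0.27 for Rian (adjusted p = 0.96), and all 8 were below 0. No gene of the speckle, paraspeckle, other long noncoding or imprinted lists was called by treatment in kidney, liver or WAT.

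**Figure D3:**
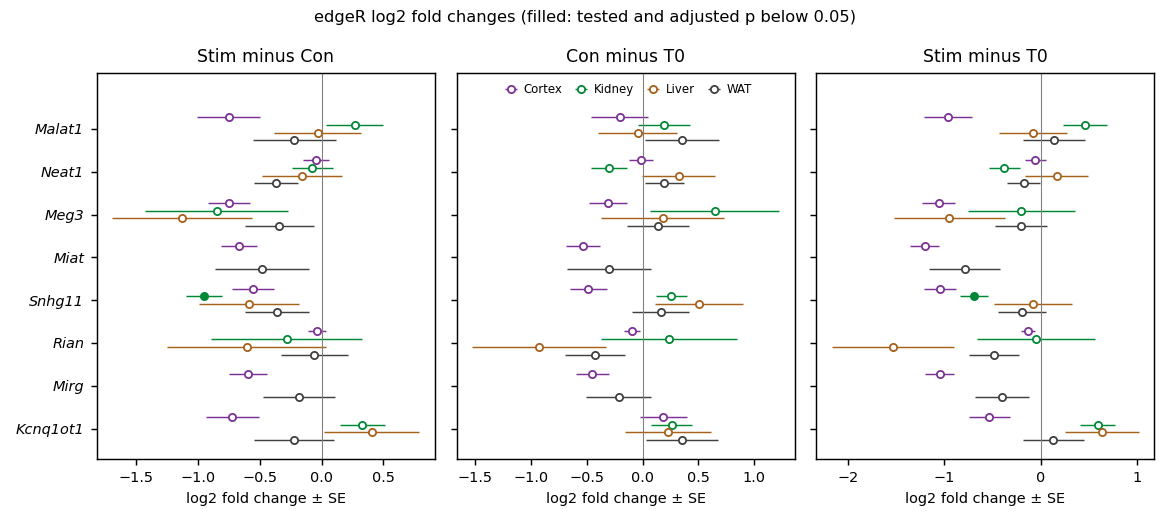
Log2 fold changes ± SE of the 8 members in 4 tissues for Stim minus Con, Con minus T0 and Stim minus T0, filled where a test was made and called. Filled points are Snhg11 in kidney (-0.95 against Con and -0.69 against T0), and all cortex values are drawn open because they were not tested, with Stim minus T0 at -0.96 for Malat1, -1.06 for Meg3, -1.20 for Miat, -1.04 for Snhg11 and -1.05 for Mirg.

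The treatment difference was also compared between tissues in the joint fit. For Stim against T0, cortex minus the mean of kidney, liver and WAT was -1.12 ± 0.35 for Malat1, -1.03 ± 0.35 for Kcnq1ot1, -0.61 ± 0.52 for Meg3 and -0.63 ± 0.45 for Snhg11 on the log2 scale, given as a description since the cortex libraries had a part in choosing the members, beside 1.19% of genes called. For Snhg11 in Stim against Con, kidney minus liver was -0.25 ± 0.56 (adjusted p = 0.93) and kidney minus WAT was -0.64 ± 0.56 (adjusted p = 0.80), with 1.34% and 1.35% of genes called. Among kidney, liver and WAT, 3.36% of genes differed in their Stim to Con effect. Mirg was called there (adjusted p = 0.042) on 33 counts in all of kidney and 65 in all of liver, and the call was lost with the animal as a block (adjusted p = 0.13), within a range of 0.0353 to 0.129 over the alternatives. Within kidney and within liver Mirg did not pass the low-count filter, and it entered the joint fit through other groups. Nothing is therefore read from this call.

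Between M and F, 5 of 8 members were called in WAT, beside 11.8% of all genes, 4.93% higher and 6.90% lower in M. Neat1 rose in M by 0.75 on the log2 scale (SE 0.14, edgeR adjusted p = 0.000905). It stood at 2231, 2305, 2538 and 2967 CPM in Stim M, at 1658, 2941 and 3538 CPM in Con M and at 1578, 2394, 2446 and 3077 CPM in T0 M. Against these, it stood at 766, 1204, 1367 and 1670 CPM in Stim F, at 1589, 1637, 1919 and 2219 CPM in Con F and at 1566, 1628, 1728 and 1751 CPM in T0 F. The M and F libraries did not overlap in Stim, and 1 M library of Con and 1 of T0 lay within the F range.

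The 3 genes of the chromosome 12 cluster fell together in M of WAT, as did Miat. Rian fell by 1.39 on the log2 scale in M (SE 0.22, edgeR adjusted p = 0.000174), with 12.1, 13.8 and 14.1 CPM in Con M, against 49.9, 54.7, 57.2 and 71.1 CPM in Con F. Meg3 fell by 1.20 (SE 0.23, adjusted p = 0.00102), with 52.3, 63.1 and 64.6 CPM in Con M, against 125.5, 175, 227 and 243 CPM in Con F. Mirg fell by 1.11 (SE 0.24, adjusted p = 0.0028), with 0.613, 0.934 and 1.02 CPM in Con M, against 1.58, 2.42, 3.06 and 3.25 CPM in Con F. Miat fell by 1.92 (SE 0.32, adjusted p = 0.000263), with 2.68, 3.23, 3.29 and 4.05 CPM in T0 M, against 8.52, 9.55, 11.4 and 38.0 CPM in T0 F. The M and F libraries of Miat overlapped in no group, and those of Rian, Meg3 and Mirg did not overlap in Con. In Stim they overlapped for Rian, Meg3 and Mirg, with Meg3 at 19.04, 48.2, 100.3 and 106.6 CPM in Stim M, against 65.4, 119.5, 129.6 and 141.8 CPM in Stim F.

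Each of the 5 WAT calls held under the 4 alternatives tried for it. Malat1, Snhg11 and Kcnq1ot1 were not called between M and F in WAT, with log2 fold changes of 0.32 ± 0.27, 0.19 ± 0.21 and 0.12 ± 0.26. Of the 3 protein-coding genes of the Dlk1-Dio3 cluster tested in WAT, 2 fell in M. Stromal markers moved with the sex label in WAT: 4 of 7 fibroblast and stromal markers fell in M, and their summed level lay at 2031 to 5602 CPM in Stim M, 2102 to 2768 CPM in Con M and 2400 to 5362 CPM in T0 M, against 3638 to 8160 CPM in Stim F, 4208 to 6174 CPM in Con F and 4298 to 8129 CPM in T0 F. Of the skeletal muscle markers 3 of 6 tested fell in M, with summed levels of 16.6 to 123.4 CPM in Stim M, 34.1 to 53.8 CPM in Con M and 49.0 to 80.6 CPM in T0 M, against 125.6 to 4957 CPM in Stim F, 45.8 to 241 CPM in Con F and 53.6 to 86.3 CPM in T0 F. None of the 7 stromal markers was at 0, Myh4 of the muscle markers was at 0 in T0 M, and the part of either cell type in the result was not tested.

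Snhg11 went in opposite directions between the sexes in liver and in kidney. In liver it rose in M by 2.37 on the log2 scale (SE 0.34, edgeR adjusted p = 2.0e-05), the only one of 6 members called there beside 6.40% of all genes. It stood at 2.87, 13.5, 28.6 and 35.0 CPM in Stim M, against 1.49, 3.19, 6.34 and 13.0 CPM in Stim F, and at 20.2, 35.4, 36.4 and 52.2 CPM in Con M, against 1.13, 5.62, 6.75 and 10.3 CPM in Con F. T0 M had a lowest value of 12.9 and a median of 27.2 CPM, against 2.17, 3.35, 4.74 and 6.68 CPM in T0 F. The sexes did not overlap in Con or in T0, and in Stim 1 M library lay within the F range.

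In kidney Snhg11 fell in M by 0.76 (± 0.12, edgeR adjusted p = 9.04e-06), and 3 of 6 members were called between M and F there, beside 46.8% of all genes, a share near that of the members. Kcnq1ot1 fell by 0.37 (SE 0.15, adjusted p = 0.043) and Rian by 1.25 (± 0.50, adjusted p = 0.042) in kidney M. The Kcnq1ot1 call was lost with RLE size factors (edgeR adjusted p = 0.056) and without the low-count filter (adjusted p = 0.058), within a range of 4.5e-04 to 0.058, and the Rian call was lost without the low-count filter (adjusted p = 0.055), within a range of 0.0065 to 0.055. Rian rested on 227 counts over the 24 kidney libraries. With total counts in place of TMM, all kidney M against F values shifted by -0.34, and the Malat1 value turned from 0.18 to -0.15. The effect of Stim against Con was not called as different between M and F for any member in kidney, liver or WAT, where edgeR called 0% of genes in kidney, 0.00735% in liver and 0% in WAT, and DESeq2 called numbers equal to 0.09997%, 0.0735% and 1.28% of the genes tested. At an unadjusted p below 0.05 edgeR gave 1326 genes in kidney, 840 in liver and 2563 in WAT for that difference.

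**Figure D4:**
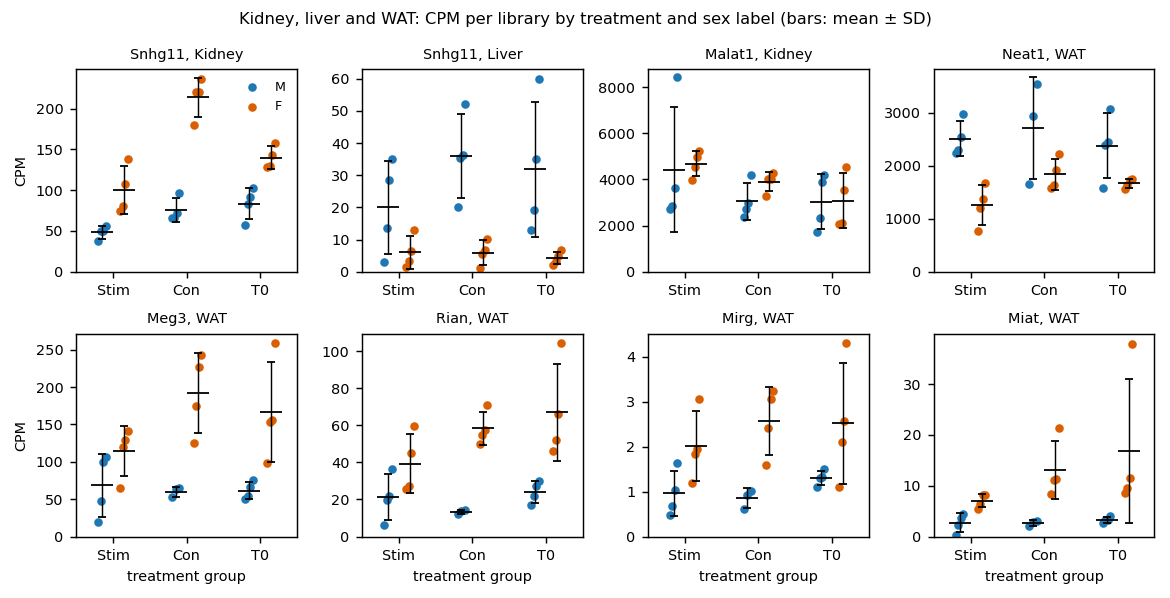
CPM by group with M and F apart for Snhg11 in kidney and liver, Malat1 in kidney, and Neat1, Meg3, Rian, Mirg and Miat in WAT, with bars for the mean ± SD of 4 libraries (3 in WAT Con M). Snhg11 is lowest in kidney Stim M (37.4 to 56.03 CPM) and higher in M than in F in liver, and Meg3, Rian, Mirg and Miat in WAT are lower in M while Neat1 is higher.

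Within groups, libraries with more of one member often had more of another, and which members went together depended on the tissue. Likeness was measured as Pearson's r of log2 CPM centred on each group and sex label, over 24 libraries (23 in WAT), whose points share depth and RNA quality within a library. Malat1 and Kcnq1ot1 went together in each tissue, with r of 0.79 in cortex and of 0.92, 0.90 and 0.93 in kidney, liver and WAT, although they lie on chromosomes 19 and 7. Malat1 and Neat1, which are neighbours on chromosome 19, had r of 0.07 in cortex and of -0.12, 0.51 and 0.10 in kidney, liver and WAT.

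In cortex the median over 28 pairs was 0.51, led by Meg3 and Snhg11 (0.91), Miat and Snhg11 (0.91) and Meg3 and Mirg (0.90), while Rian had 0.67 with Meg3 and 0.61 with Mirg. In WAT the median over 28 pairs was 0.23, with 0.78 for Meg3 and Rian, 0.71 for Rian and Mirg and 0.87 for Miat and Rian, while Snhg11 had -0.35 with Mirg. The median over 15 pairs was 0.49 in liver and -0.02 in kidney. These are descriptions with no test.

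**Figure D5:**
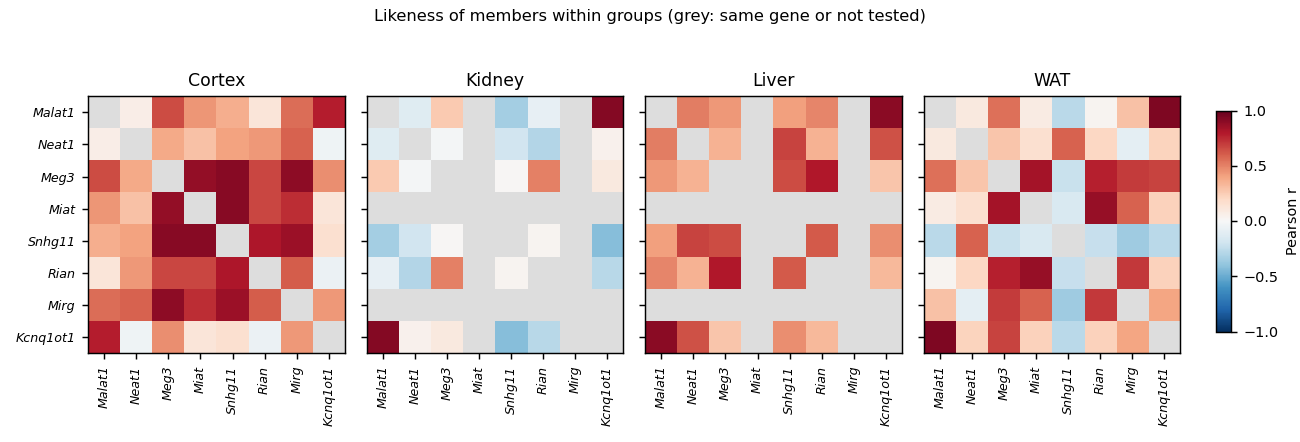
Pearson's r of centred log2 CPM between members in cortex, kidney, liver and WAT, with grey for a gene against itself and for members that did not pass the filter. Malat1 with Kcnq1ot1 is dark red in all 4 tissues (0.79, 0.92, 0.90 and 0.93), and the Meg3, Miat, Snhg11 and Mirg block is dark red in cortex.

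Among genes that are no members, with a mean of at least 1 CPM, those most like Malat1 differed between tissues. In cortex they were Gm45130 (r = 0.86), Cfp, the complement factor properdin (0.85), and Gm44831 (0.82), of 14870 genes searched. In kidney they were A930004J17Rik (0.94), Gm38197 (0.94) and 5330406M23Rik (0.93). In liver they were Ubn2 (0.96), Thoc2l (0.95) and the splicing regulator Srek1 (0.93), and in WAT the splicing factor Rbm25 (0.96), Gm37274 (0.95) and 9630010A21Rik (0.95).

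Meg3 was most like Trank1 (0.92), Snrnp70, a protein of the U1 splicing particle (0.92), and Fam193b (0.91) in cortex. In WAT it was most like the scaffold protein gene Dlgap4 (0.89), Gm15675 (0.83) and Dtx3 (0.83). In kidney those most like it included Gm11808 (0.80) and Matk (0.78), and in liver it was most like Lgr5 (0.77), Gm44117 (0.77) and Mup1 (0.74), at mean levels of 2.98 and 3.81 CPM of Meg3 itself. Neat1 was most like Arhgef40 (0.81), Gnl3 (0.77) and Mamdc4 (0.75) in cortex, Rad50 (0.86), Mapk7 (0.86) and Sh3pxd2b (0.86) in kidney, Taok2 (0.85), Fastk (0.85) and Dab2 (0.84) in liver, and Ushbp1 (0.77), Gm16008 (0.76) and Ano8 (0.76) in WAT. The median r over all genes searched lay between -0.04 and 0.06 for these 3 members in the 4 tissues.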

How the data were processed

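Polyadenylated RNA of 4 tissues was sequenced in 95 libraries of 24 mice, and 23 animals gave all 4 tissues. The deposited values are raw counts per gene made by the authors with featureCounts, per the file header, and the submitters' processing notes name STAR 2.7.10, DESeq2 and mm10/GRCm38. The word "corrected" in the header is not explained in the sources used here. Strand and annotation of the counting are not given there either. All values were whole numbers, and rows sharing a symbol were kept apart.

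Libraries were grouped by the labels for tissue, treatment and sex label, and 95 of 95 matched their sex label. From the counts, edgeR 4.0.16 (R 4.3.3) was run in each tissue with TMM scaling, filterByExpr (minimum count 10), and a robust quasi-likelihood fit of treatment and sex label. Fold changes used edgeR's default prior count, and the log2 CPM behind the likeness values used a prior count of 2. Benjamini-Hochberg adjusted p-values were taken over all genes tested. A joint fit of all libraries compared tissues. DESeq2 1.42.0, limma 3.58.1 voom, other scalings and filters, a mitochondrial covariate, each sex alone and each library left out were alternatives. The fits were tested on simulated data.

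The animal codes in the labels pair the tissues of 1 animal. Deviations from group means had a mean correlation of 0.0456 over 141 pairs of the same animal (range -0.451 to 0.586). Over 429 pairs of other animals the mean was -0.0151 (range -0.605 to 0.475). Centring within each group and sex label pulls the second mean below 0 when the first is above 0. The second mean is therefore no independent comparison. Each treatment group holds other animals, so the block was used only between tissues.

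The 8 members and the 214 entries of 22 gene lists were chosen with earlier results of these data known. The members' Stim against T0 values in cortex, planned as tests, are given as a description because the cortex libraries had a part in the choice. The same holds for cortex minus the other tissues, a contrast that was not planned and was chosen after seeing the data. Named list genes are those called with the smallest p per list, up to 4 for Stim against Con and up to 2 for other contrasts. A gene that the likeness rule names in kidney is not reported here. The spread is that between animals. Intervals cover counting error only, and PCR duplicates were not told apart.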

Additional observations from a re-analysis of the deposited data

Results flagged for a closer look

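Dixon's criterion was applied to groups of 8 libraries (7 in WAT of Con), with M and F together. In 13 of 91 combinations of a member (or the members' summed share), tissue and group, the highest or lowest library lay far from the others. Chance flags about 1 in 20 if all libraries of a group follow 1 normal distribution, which was not tested with M and F pooled. In kidney, the Stim library of animal A5DA had 8433 CPM of Malat1, with the nearest at 5215 CPM, and the 8 members took 0.970% of its counts (95% Wilson interval 0.965% to 0.974%), with the nearest library at 0.626%. The same A5DA library had 408 CPM of summed microglia and macrophage markers, against 90.3 to 227 CPM in the other kidney Stim libraries. Its summed lymphocyte markers were at 37.6 CPM, against 4.07 to 22.5 CPM, and the part of these markers in the result was not tested. The kidney Con library of animal 9916 had 25.8 CPM of Meg3, with the nearest at 2.97 CPM. It had the lowest depth of the kidney libraries (8217875 counts), 68.4 CPM of summed cortex markers against 5.12 to 22.7 CPM in the other 7 Con libraries, and 35.8 CPM of summed neuron markers against 3.08 to 7.37 CPM, and their part in the result was not tested. The kidney library of T0 animal 3 had 4.73 CPM of Meg3, with the nearest at 2.51 CPM.

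In liver, the Stim library of animal B4B9 had 94.4 CPM of Kcnq1ot1, with the nearest at 40.0 CPM. The Con library of 9BA4 had 504 CPM of Neat1 (nearest 289 CPM) and that of E329 had 44.8 CPM of Kcnq1ot1 (nearest 24.2 CPM). Among T0 livers, animal 1 had 1502 CPM of Malat1 (nearest 1019 CPM), animal 3 had 509 CPM of Neat1 (nearest 299 CPM) and animal 2 had 10.6 CPM of Meg3 (nearest 5.49 CPM). In WAT of T0, animal 6 had 1885 CPM of Malat1 (nearest 1095 CPM), and animal 1 had 38.0 CPM of Miat (nearest 11.4 CPM) and 4.31 CPM of Mirg (nearest 2.57 CPM). The WAT library of T0 animal 6 had 17367 CPM of summed WAT markers, against 38351 to 43106 CPM in the other T0 libraries of WAT. Its summed neuron markers were at 59.3 CPM, against 5.02 to 17.1 CPM, and the part of these markers in the result was not tested.

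The Stim to Con effect of Mirg differed among kidney, liver and WAT (edgeR adjusted p = 0.0416), and kidney minus liver was -3.95 on the log2 scale (adjusted p = 0.0390), a contrast chosen after seeing the data. With the animal as a replicate block the adjusted p among the 3 tissues was 0.127, and with limma voom it was 0.0555. Mirg did not pass the low-count filter in kidney or in liver and entered the joint fit through other groups. Nothing is read from either of its calls.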

How the results depend on the processing

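With RLE size factors, DESeq2, a 1 CPM filter, no filter, no sex label or the 2 groups compared alone, no member turned in sign. In cortex, only values larger in size than their standard error with edgeR as described were looked at for a turn. Depth limits what can be read for Miat, Rian and Mirg in kidney and liver, where few counts were found, and each sex alone leaves at most 4 libraries a group. The cortex minus others, kidney minus liver and kidney minus WAT contrasts were chosen after seeing the data. The same animals gave all tissues, and the replicate block changed the call of Mirg and no other member's. Alternatives give the number of genes called as a percent of the number tested with edgeR as described. With edgeR as described it was 5.41 for Stim against Con in cortex, 21.2 for Con against T0 in cortex, 35.7 for Stim against T0 in cortex, 0.126 for M against F in cortex, 5.08 for M minus F of Stim against Con in cortex, 0.231 for Stim against Con in kidney, 0.312 for Con against T0 in kidney, 0.681 for Stim against T0 in kidney, 0 for M minus F of Stim against Con in kidney, 1.95 for Stim against Con in liver, 0.529 for Con against T0 in liver, 1.34 for Stim against T0 in liver, 0.00735 for M minus F of Stim against Con in liver, 0.00596 for Stim against Con in WAT, 0.161 for Con against T0 in WAT, 0.226 for Stim against T0 in WAT, 0 for M minus F of Stim against Con in WAT, 3.36 for the difference in Stim against Con among kidney liver and WAT, 1.19 for Stim against T0 in cortex minus the mean of the others, 1.34 for Stim against Con in kidney minus liver and 1.35 for Stim against Con in kidney minus WAT. With DESeq2 the percent of genes called was 8.24 for Stim against Con in cortex, 0.427 for M against F in cortex, 8.01 for M minus F of Stim against Con in cortex, 0.631 for Stim against Con in kidney, 1.34 for Con against T0 in kidney, 2.55 for Stim against T0 in kidney, 0.09997 for M minus F of Stim against Con in kidney, 4.56 for Stim against Con in liver, 1.82 for Con against T0 in liver, 3.36 for Stim against T0 in liver, 0.0735 for M minus F of Stim against Con in liver, 1.05 for Stim against Con in WAT, 1.25 for Con against T0 in WAT, 2.22 for Stim against T0 in WAT and 1.28 for M minus F of Stim against Con in WAT. In F libraries alone the percent of genes called was 0.0120 for Stim against Con in cortex, 12.3 for Con against T0 in kidney, 1.24 for Stim against T0 in kidney, 0.0147 for Stim against Con in liver, 0.00735 for Con against T0 in liver, 0.0662 for Stim against T0 in liver, 0 for Stim against Con in WAT, 0.280 for Con against T0 in WAT and 0.00596 for Stim against T0 in WAT. In M libraries alone the percent of genes called was 20.5 for Stim against Con in cortex, 6.98 for Con against T0 in cortex, 17.9 for Stim against T0 in cortex, 0 for Stim against Con in kidney, 0 for Con against T0 in kidney, 0.0250 for Stim against T0 in kidney, 0.353 for Stim against Con in liver, 0.0441 for Con against T0 in liver, 0.162 for Stim against T0 in liver, 0 for Stim against Con in WAT, 0 for Con against T0 in WAT and 0 for Stim against T0 in WAT. With RLE size factors the percent of genes called was 0.00596 for M minus F of Stim against Con in WAT. With the animal as a replicate block the percent of genes called was 0.651 for the difference in Stim against Con among kidney liver and WAT, 0.498 for Stim against Con in kidney minus liver and 0.00957 for Stim against Con in kidney minus WAT. With that block and without the kidney libraries of T0 animals 4 and 5 the percent of genes called was 0.709 for the difference in Stim against Con among kidney liver and WAT, 0.541 for Stim against Con in kidney minus liver and 0.00957 for Stim against Con in kidney minus WAT. With limma voom and quality weights the percent of genes called was 2.41 for Stim against Con in kidney, 15.6 for Con against T0 in kidney, 13.8 for Stim against T0 in kidney, 8.69 for Stim against Con in liver, 10.3 for Con against T0 in liver, 3.82 for Stim against T0 in liver, 0 for Stim against Con in WAT, 4.33 for Con against T0 in WAT, 2.34 for Stim against T0 in WAT, 2.22 for the difference in Stim against Con among kidney liver and WAT, 10.98 for Stim against T0 in cortex minus the mean of the others, 2.96 for Stim against Con in kidney minus liver and 0.0910 for Stim against Con in kidney minus WAT. With the mitochondrial mRNA percent as a covariate the percent of genes called was 0.0812 for Stim against Con in kidney, 0.112 for Con against T0 in kidney, 2.98 for Stim against Con in liver, 2.65 for Stim against T0 in liver and 0.250 for Con against T0 in WAT. Without the low-count filter the percent of genes called was 0.00625 for M minus F of Stim against Con in kidney, 1.40 for M minus F of Stim against Con in liver, 0.0655 for Con against T0 in WAT and 0.0477 for Stim against T0 in WAT. Without the sex label the percent of genes called was 0.0437 for Stim against Con in kidney, 0.0750 for Con against T0 in kidney, 0.125 for Stim against T0 in kidney, 1.13 for Stim against Con in liver, 0.287 for Con against T0 in liver, 0.654 for Stim against T0 in liver and 0 for Stim against Con in WAT. With only the 2 groups compared the percent of genes called was 0.0750 for Stim against Con in kidney, 0.868 for Con against T0 in kidney, 0.269 for Stim against T0 in kidney, 0.470 for Stim against Con in liver, 2.57 for Con against T0 in liver, 0.404 for Stim against T0 in liver, 0 for Stim against Con in WAT, 0.411 for Con against T0 in WAT and 0.0655 for Stim against T0 in WAT. With total-count scaling the percent of genes called was 0.112 for Stim against Con in kidney, 0.0875 for Con against T0 in kidney, 1.15 for Stim against Con in liver, 0.757 for Stim against T0 in liver, 0.0147 for M minus F of Stim against Con in liver, 0.0477 for M minus F of Stim against Con in WAT, 0.359 for Stim against T0 in cortex minus the mean of the others and 0.642 for Stim against Con in kidney minus liver.

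Cortex values smaller in size than their standard error with edgeR as described are left out of the turns listed here. Among them, leaving out each library in turn gave -0.0761 to 0.0300 for Neat1 and -0.0636 to 0.00763 for Rian in Stim against Con. For Neat1 it gave -0.0563 to 0.0688 in Con against T0 and -0.0952 to 0.0255 in Stim against T0. In F libraries alone, the log2 values that turned were 0.0783 for Malat1 in Stim against Con in cortex, 0.0637 for Malat1 in Stim against Con in liver, -0.29 for Meg3 in Con against T0 in liver and 0.54 for Snhg11 in Stim against T0 in liver. In M libraries alone, the log2 values that turned were 0.17 for Meg3 in Con against T0 in cortex, 0.0146 for Snhg11 in Con against T0 in cortex, 0.21 for Neat1 in Stim against Con in kidney, 0.85 for Meg3 in Stim against Con in kidney, -1.04 for Meg3 in Con against T0 in kidney, -0.14 for Snhg11 in Con against T0 in kidney, -0.089 for Kcnq1ot1 in Con against T0 in kidney, 0.21 for Malat1 in Con against T0 in liver, 0.0768 for Malat1 in Stim against T0 in liver, 0.43 for Rian in Stim against Con in WAT, -0.0419 for Malat1 in Stim against T0 in WAT, 0.0241 for Neat1 in Stim against T0 in WAT, 0.0796 for Meg3 in Stim against T0 in WAT and 0.0522 for Snhg11 in Stim against T0 in WAT. In T0 libraries alone, the log2 values that turned were 0.11 for Kcnq1ot1 in cortex against kidney and 0.36 for Malat1 in cortex against WAT. With the animal as a replicate block, the log2 values that turned were 0.19 for Meg3 in Stim against Con in kidney minus WAT. With that block and without the kidney libraries of T0 animals 4 and 5, the log2 values that turned were 0.18 for Meg3 in Stim against Con in kidney minus WAT. With limma voom and quality weights, the log2 values that turned were -0.16 for Meg3 in Con against T0 in kidney, 0.0246 for Malat1 in Stim against Con in liver, 0.29 for Snhg11 in Stim against T0 in liver, 0.00225 for Malat1 in cortex against WAT, -0.59 for Miat in Stim against T0 in cortex minus the mean of the others, -0.46 for Miat in Stim against Con in kidney minus liver, 0.00635 for Kcnq1ot1 in Stim against Con in kidney minus liver, 0.29 for Meg3 in Stim against Con in kidney minus WAT and 0.10 for Miat in Stim against Con in kidney minus WAT. With the mitochondrial mRNA percent as a covariate, the log2 values that turned were 0.0177 for Neat1 in Stim against Con in kidney, 0.10 for Rian in Stim against Con in kidney, -0.10 for Rian in Con against T0 in kidney and 0.21 for Malat1 in Con against T0 in liver. With total-count scaling, the log2 values that turned were 0.0152 for Neat1 in Stim against Con in kidney, -0.15 for Malat1 in M against F in kidney, 0.14 for Malat1 in Stim against Con in liver, 0.0669 for Neat1 in Stim against Con in liver, -0.0604 for Meg3 in Con against T0 in liver, 0.0259 for Malat1 in M against F in liver, 0.0537 for Kcnq1ot1 in M minus F of Stim against Con in WAT, 8.25e-05 for Malat1 in cortex against liver, 0.52 for Kcnq1ot1 in cortex against liver, 0.63 for Kcnq1ot1 in kidney against liver, -0.23 for Malat1 in liver against WAT, -0.13 for Neat1 in Stim against Con in kidney minus liver, -0.0764 for Meg3 in Stim against Con in kidney minus liver and -0.0181 for Rian in Stim against Con in kidney minus liver. Leaving out each library in turn, with the library in brackets, gave percents called of 2.005 (5A66) to 8.27 (D215) for Stim against Con in cortex, 0.09997 (9916) to 0.219 (DDF3) for Stim against Con in kidney, 0.0875 (9916) to 0.600 (T0 animal 7) for Con against T0 in kidney, 0.225 (B4B9) to 2.02 (47BE) for Stim against T0 in kidney, 0.617 (9916) to 5.90 (B23B) for Stim against Con in liver, 0.228 (9916) to 0.603 (A123) for Con against T0 in liver, 0.676 (T0 animal 2) to 2.82 (47BE) for Stim against T0 in liver, 0 (5A66) to 0.0179 (A5DA) for Stim against Con in WAT, 0.0477 (E329) to 0.369 (T0 animal 6) for Con against T0 in WAT and 0.0298 (T0 animal 8) to 1.11 (T0 animal 6) for Stim against T0 in WAT. In each of these contrasts, leaving out any of 7 to 13 libraries moved the percent by over 1.5 times. Log2 values ran from -1.08 to 0.34 for Meg3 in Stim against Con in kidney (turned without 9916 alone), -1.05 to 0.10 for Rian in Stim against Con in kidney (turned without 9916 alone), -0.56 to 0.87 for Meg3 in Con against T0 in kidney (turned without 9916 alone), -0.16 to 0.48 for Rian in Con against T0 in kidney (turned without 9916 alone), -0.93 to 0.26 for Rian in Stim against T0 in kidney, -0.31 to 0.16 for Malat1 in Stim against Con in liver, -0.39 to 0.0682 for Neat1 in Stim against Con in liver (turned without 9BA4 alone), -0.23 to 0.17 for Malat1 in Con against T0 in liver, -0.33 to 0.54 for Meg3 in Con against T0 in liver, -0.0377 to 0.42 for Kcnq1ot1 in Con against T0 in liver (turned without E329 alone), -0.34 to 0.14 for Malat1 in Stim against T0 in liver, -0.0843 to 0.36 for Neat1 in Stim against T0 in liver (turned without B4B9 alone), -0.35 to 0.21 for Snhg11 in Stim against T0 in liver, -0.24 to 0.0546 for Rian in Stim against Con in WAT, -0.49 to 0.13 for Miat in Con against T0 in WAT (turned without T0 animal 1 alone), -0.10 to 0.39 for Malat1 in Stim against T0 in WAT (turned without B51B alone) and -0.000832 to 0.32 for Kcnq1ot1 in Stim against T0 in WAT (turned without A5DA alone), all of members that were not called, and the cause was not tested.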
